A study of Homo sapiens with 12 samples.

Results

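The translation of 10 genes of the NF-kB pathway was followed in PANC-1 cells, an established human pancreatic carcinoma line of ductal origin. They were the subunit genes NFKB1, NFKB2, RELA and RELB, the inhibitor genes NFKBIA and NFKBIE, the kinase gene IKBKB, and the target genes TNFAIP3, BIRC3 and CXCL1. The genes were taken by symbol, with earlier results of these data known, and all 10 were found among the 20212 protein-coding genes of the count table. For this, 3 cultures received DMSO, the solvent, and 3 received rapamycin at 50 nM for 60 min, all in complete medium with serum. Rapamycin inhibits the mTORC1 kinase complex, and the study used PANC-1 as a line without the translational repressor 4EBP1. No stimulus of the NF-kB pathway was part of the treatment, and all cultures were of 1 cell line. Ribosome-protected fragments (RF) and total RNA were sequenced from each culture, which gave 12 libraries. The labels number the cultures of each treatment 1 to 3 and do not say that they were grown or treated separately, so p-values measure only the spread between these samples. The comparison asked whether rapamycin changed the translational efficiency (TE), meaning RF relative to total RNA, of each gene.

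NF-kB transcription factors are dimers of Rel-family subunits that inhibitor proteins hold in the cytoplasm. Receptors of TNF and related signals activate the IKK kinases, which mark the inhibitors for degradation and so release the dimers to the nucleus. Genes of the inhibitors and of TNFAIP3 are among the first that the dimers then switch on, and their short-lived products end the signal, so the loop depends on how fast these mRNAs are made and translated.

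The RF libraries held between 278835 and 1574723 counts and the total RNA libraries between 78081241 and 94293744. DMSO culture 1 (303220 RF counts) and rapamycin culture 3 (278835) had the smallest RF libraries. Counts were expressed as CPM, which scales them to the size of each library (edgeR's TMM method). A gene at 0 could still have had 3 counts by counting error alone, or 2.04 to 9.98 CPM in RF and no more than 0.0388 CPM in total RNA. DMSO total RNA libraries 1 and 2 stood apart, with counts on 16840 and 16858 genes where the other 4 total RNA libraries had counts on 19751 to 19847. All 7 epithelial markers examined exceeded 1 FPKM, and none of 6 T and B cell markers, 3 endothelial markers or 6 acinar and islet markers did. Of 5 macrophage markers 1 did (CD68, mean 78.7 FPKM), and so did 1 of 6 fibroblast markers (COL1A1, mean 1.05 FPKM).

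Promoters are shown first because the feedback loop runs through them. A kB element is the DNA motif that NF-kB dimers bind, and several of the genes belong here because they are known targets of NF-kB, so a high share of matches among them is no independent result. RefSeq promoter windows (GRCh38.p14, from 250 bases before to 50 after the start of a transcript) were at hand for 7 of the 10 genes, with 11 windows in all, and not for RELB, NFKBIE and IKBKB. The kB consensus, searched on both strands, was found in 7 of the 11 windows (63.6%), which belonged to 6 of the 7 genes, and in 11.3% of all 35116 windows. In the list of 96 pathway genes described further on, which includes the 10, a match was found in 26.9% of the windows, with 30.6% for targets and 77.8% for inhibitors. RELA was the gene whose windows held no match, and the 2 windows of NFKB2 with a match held 5 matches. The stretches around the matches of the other 5 genes follow, 5′ to 3′ on the strand of the gene, with the matches in capitals.
BIRC3, chr11:102317255-102317388, plus strand: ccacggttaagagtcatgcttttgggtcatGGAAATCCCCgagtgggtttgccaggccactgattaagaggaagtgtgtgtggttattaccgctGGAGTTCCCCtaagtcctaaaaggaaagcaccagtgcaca
CXCL1, chr4:73869284-73869354, plus strand: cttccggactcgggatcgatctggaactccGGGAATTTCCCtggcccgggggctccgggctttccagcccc
NFKB1, chr4:102501280-102501349, plus strand: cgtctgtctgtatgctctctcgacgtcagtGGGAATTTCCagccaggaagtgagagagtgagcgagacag
NFKBIA, chr14:35404791-35404860, minus strand: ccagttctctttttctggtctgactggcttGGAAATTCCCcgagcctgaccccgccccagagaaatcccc
TNFAIP3, chr6:137867162-137867243, plus strand: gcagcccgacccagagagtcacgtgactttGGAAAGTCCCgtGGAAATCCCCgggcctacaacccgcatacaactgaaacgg

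Counted from the start of the transcript, the matches began at -199 and -135 in BIRC3, at -49 in NFKB1, at -81 in NFKBIA and at -67 and -55 in TNFAIP3. In CXCL1, the matches that began at -79 and -78 overlapped, 1 on each strand. A match is a description of the sequence, and binding was not measured.

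In total RNA, the 10 genes spanned from 6.93 FPKM for IKBKB to 159 for NFKBIA (medians over the 6 cultures). FPKM counts fragments per length of transcript, so genes can be compared with each other. NFKBIA, the inhibitor of the main NF-kB dimers, and BIRC3, a ubiquitin ligase that restrains cell death downstream of TNF receptors, were the most abundant, at 159 and 144 FPKM. The chemokine gene CXCL1 followed at 55.2 FPKM, then NFKB2 at 38.9 and RELA at 38.3. NFKBIE was at 19.3 FPKM, NFKB1 at 15, TNFAIP3 at 11.3, RELB at 10.2 and IKBKB at 6.93, while the median gene with both measurements in DMSO was at 11.3. Of the neighbours in this order, NFKB2 and RELA overlapped over the 6 cultures and so did TNFAIP3 and RELB, and the ranges of all other neighbours were separate.

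**Figure D1:**
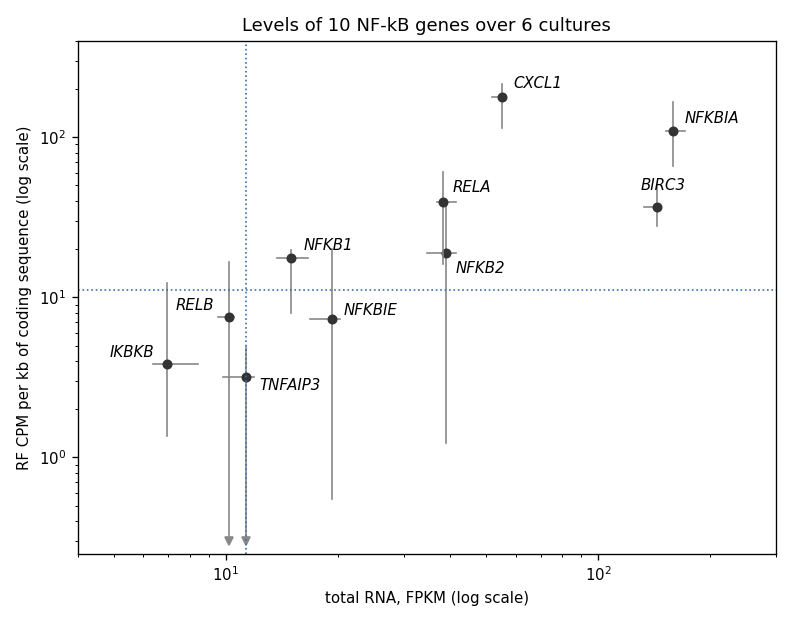
Level of each gene in total RNA (horizontal axis, FPKM) and in RF (vertical axis, RF CPM per kb of coding sequence), both on log scales. Points are medians over the 6 cultures, lines run from the lowest to the highest culture, arrowheads mark a culture with 0 RF counts, and dotted lines give the median of 13023 genes in DMSO. BIRC3 lay beside NFKBIA in total RNA (144 and 159 FPKM) and beside RELA in RF (36.7 and 39.1).

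The order in RF was another. Per kb of coding sequence, CXCL1 led with a median of 179 RF CPM, ahead of NFKBIA at 109, RELA at 39.1, BIRC3 at 36.7, NFKB2 at 19.0 and NFKB1 at 17.6. RELB at 7.56 RF CPM per kb, NFKBIE at 7.34, IKBKB at 3.86 and TNFAIP3 at 3.19 were lowest, where the median of 13023 genes in DMSO was 11.1. The RF ranges of all neighbours in this order overlapped except those of NFKBIA and RELA, so only the broad order stood clear of the spread between cultures.

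BIRC3 carried few footprints for its mRNA. In DMSO its RF CPM was 0.115 times its total RNA CPM, which was 17.8% of the ratio of the median gene and lay at percentile 3.98 of 13023 genes. With RF scaled by coding length and total RNA by transcript length, BIRC3 was at 25.7% of the median gene and at percentile 10.5. Its leading transcript, ENST00000263464, is 6877 bases long with 1812 of coding sequence and made up 77.3% ± 0.46 (SD, n = 3) of its FPKM in DMSO and 77.4% ± 1.28 in rapamycin. TNFAIP3, the deubiquitinase that ends TNF signals, was also low, at 29.7% of the median ratio in CPM (percentile 9.85) and 21.0% per length (percentile 7.69). NFKB2 was at 58.9% and 37.7%, NFKBIA at 69.6% and 58.9%, and CXCL1 at 147% and 283% of the median gene in CPM and per length. In all 6 cultures the log2 TE of BIRC3 was below that of NFKB1, RELA, RELB, NFKBIA, NFKBIE, IKBKB and CXCL1. It was below that of NFKB2 in 5 of 6 and below that of TNFAIP3 in 4 of 6. This log2 TE was not scaled by length. Scaled by length in DMSO, TNFAIP3 (21.0% of the median gene) was below BIRC3 (25.7%). CXCL1 is nearly identical to CXCL2 and CXCL3, so its counts, made from unique alignments alone, are uncertain.

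Total RNA of the 10 genes differed little between the treatments. No gene of the 10 passed an adjusted p of 0.05 in edgeR's quasi-likelihood test, where 0.0% of 13329 genes did, and in DESeq2 the count was also 0 (background 0.218%). The log2 fold changes of total RNA lay between -0.09 (NFKBIA) and 0.05 (IKBKB), with 8 of the 10 below 0 and a median of -0.04. Over all genes tested the median was 0.01, with 6244 below 0 and 7085 above. Standard errors of the 10 genes were between 0.03 and 0.057, and their 95% intervals reached no further than 0.894-fold and 1.13-fold. In bulk RNA, fewer cells with a transcript and fewer copies per cell cannot be told apart.

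NFKBIA was the 1 gene of the 10 with an unadjusted p under 0.05 in total RNA (background 5.82%). It stood at 240, 255 and 245 total RNA CPM in DMSO cultures 1, 2 and 3 and at 232, 231 and 233 CPM in rapamycin. Every rapamycin culture was below every DMSO culture (background 6.61%, or 14.8% in either direction). The fold change was -0.09 on the log2 scale (SE 0.032, 95% interval -0.16 to -0.02), with p = 0.0183 and an adjusted p of 0.766 in edgeR, and the exact permutation test gave its smallest possible p of 0.1. FPKM values of the same libraries were separated in the same way, at 166 ± 4.79 in DMSO and 154 ± 2.06 in rapamycin (SD, n = 3 each). They are no independent support, and their share over all genes was not computed. Without DMSO culture 1 or without DMSO culture 2, whose libraries detected fewer genes, the log2 fold change was -0.11 or -0.06, and the part of these libraries in the result was not tested. The lowest adjusted p over 13 alternatives was 0.389.

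CXCL1 was the other gene whose total RNA CPM did not overlap between the treatments (background 14.8%, or 6.61% with rapamycin below). Its total RNA was at 64.7, 63.5 and 63.2 CPM in DMSO and at 62.5, 58.7 and 62.1 CPM in rapamycin, a log2 fold change of -0.06 (SE 0.037, adjusted p = 0.766 in edgeR). In FPKM the CXCL1 values overlapped between the treatments. BIRC3, the most abundant in counts, had 743 to 753 total RNA CPM in DMSO and 701 to 754 in rapamycin. Total RNA of NFKB1 was -0.04 on the log2 scale in counts and 0.11 in FPKM, and neither passed the test.

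The subunits kept nearly level amounts of mRNA. RELA was at 95.2, 102 and 97.3 total RNA CPM with DMSO and at 94.8, 96.5 and 95.9 with rapamycin, and NFKB2 was at 128, 125 and 125 against 123, 124 and 126. For NFKB1 the values were 67.4, 66.3 and 64.5 against 64.6, 67.2 and 61.4, and for RELB, the least abundant of the 4, they were 27.0, 24.9 and 26.1 against 25.5, 24.4 and 25.9 CPM. In each subunit the treatments overlapped.

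Of the other regulators, TNFAIP3 was at 36.6, 35.8 and 35.3 total RNA CPM with DMSO and at 33.8, 38.2 and 33.1 with rapamycin, so that rapamycin culture 2 was above and the other two were below all DMSO cultures. IKBKB was at 21.8, 22.1 and 21.4 against 20.7, 23.8 and 23.2, with rapamycin cultures on both sides of DMSO as well. NFKBIE was at 28.6, 30 and 28.6 against 28.8, 30.3 and 28.6 CPM, and in all 3 genes the treatments overlapped.

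**Figure D2:**
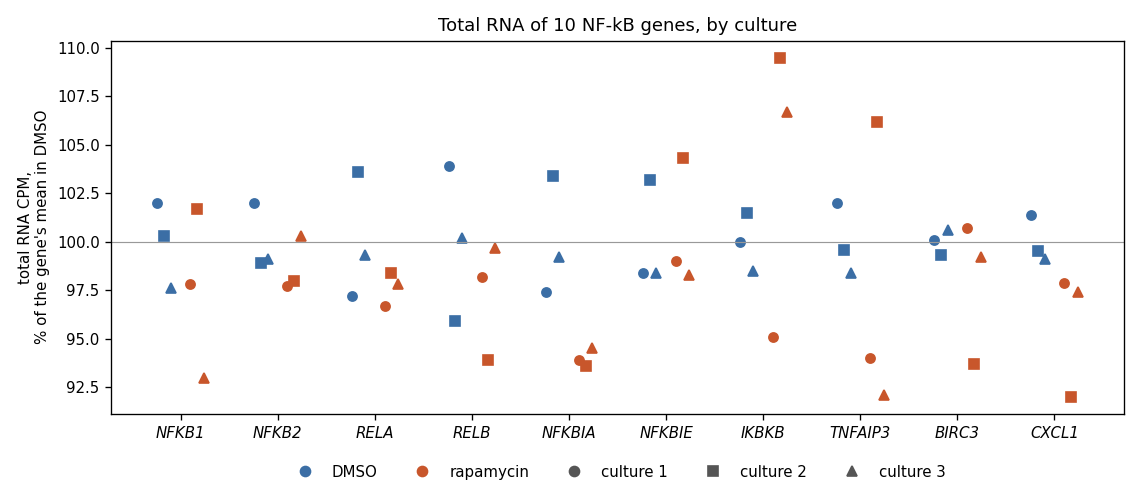
Total RNA CPM of each gene in each culture (vertical axis, percent of the mean of that gene in DMSO), with DMSO in blue, rapamycin in orange and a symbol for each culture number. The 30 rapamycin values lay between 92.0% and 109.5% and the 30 DMSO values between 95.9% and 103.9%.

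Footprints were fewer and varied far more. The biological coefficient of variation over all genes was 54.9% in RF and 5.31% in total RNA. The TE fit used 1 estimate of spread per gene for both library types (24.4% over all genes). Its SEs and intervals are therefore too small for the spread of RF. Over all genes tested its median SE was 0.583, where that of RF alone was 0.839. All 10 genes passed the minimum of 10 RF counts, with 29 counts over the 6 libraries for TNFAIP3 and 578 for NFKBIA. None of the 10 passed an adjusted p of 0.05 for RF or for TE in edgeR, where 0.0% of 13329 genes did in each. At an unadjusted p under 0.05 the count was 0 for RF (background 3.68%) and 1 for TE (background 12.6%), and in DESeq2 it was 0 for RF and 1 for TE at an adjusted p under 0.05 (background 0.0375% and 9.32%). The 1 gene was BIRC3 each time.

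**Figure D3:**
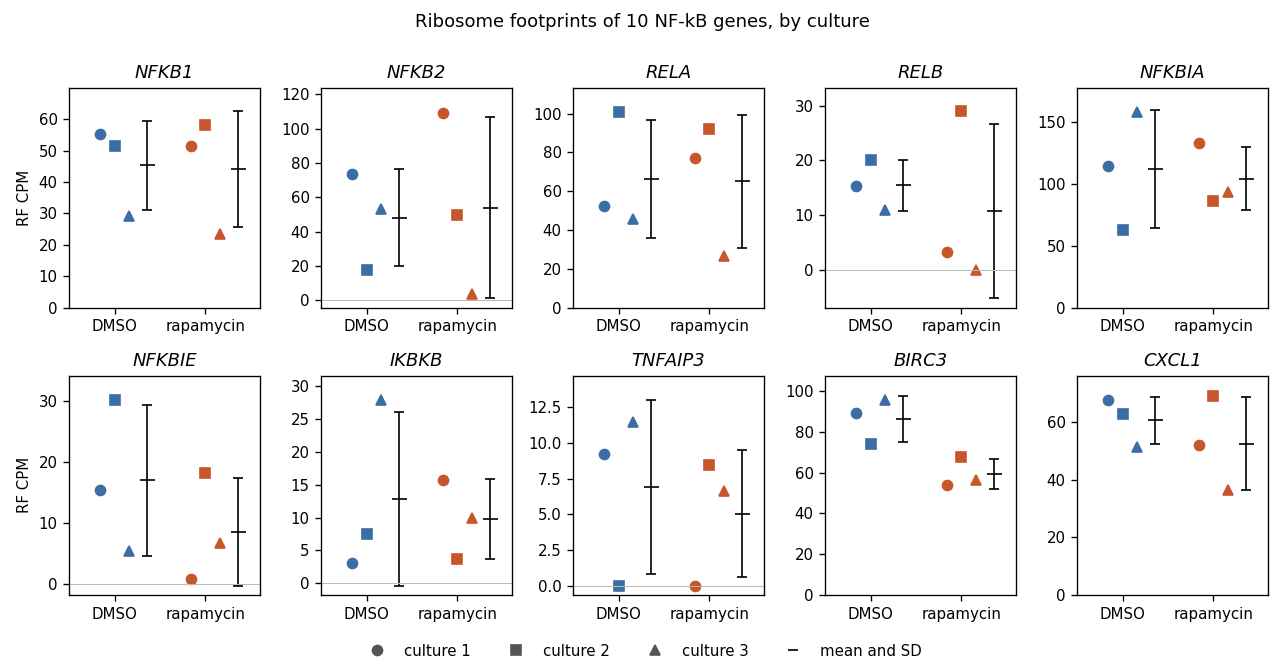
RF CPM of each gene in the 3 DMSO (blue) and 3 rapamycin cultures (orange), with mean and SD in black and an axis of its own for each gene. BIRC3 was the 1 gene of the 10 whose treatments did not overlap.

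Among the subunits, NFKB1 encodes the precursor whose processed form pairs with RELA in the classical dimer (GRCh37, chromosome 4, 103422487 to 103538459, plus strand). It had 18, 41 and 43 footprints under DMSO (raw RF counts, cultures 1 to 3) against 62, 48 and 7 under rapamycin. In RF CPM these were 55.4, 51.5 and 29.2 against 51.4, 58.1 and 23.3, with culture 3 lowest in both treatments. The TE of NFKB1 differed by 0.18 on the log2 scale (SE 0.41, edgeR adjusted p = 0.888). RELA, the subunit that carries the activation domain of the classical dimer (chromosome 11, 65421070 to 65430561, minus strand), had 17, 80 and 67 footprints under DMSO against 93, 76 and 8 under rapamycin. Its RF CPM ranged from 45.5 to 101 in DMSO and from 26.6 to 92.0 in rapamycin, which overlapped. The difference of RELA in TE was 0.12 (SE 0.46, edgeR adjusted p = 0.945), with a 95% interval from 0.55-fold to 2.13-fold.

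The subunits of the alternative pathway were counted less evenly. NFKB2, whose precursor holds RELB in the cytoplasm until it is processed (chromosome 10, 104153867 to 104162281, plus strand), had 24, 14 and 78 footprints under DMSO against 132, 41 and 1 under rapamycin. In RF CPM that is a range from 3.33 to 109, both ends of which were rapamycin cultures, while its total RNA stayed between 9555 and 11972 counts. The TE of NFKB2 differed by 0.5 (SE 0.7, edgeR adjusted p = 0.813) and by -0.42 without rapamycin culture 1. RELB (chromosome 19, 45504719 to 45541450, plus strand) had 5, 16 and 16 footprints under DMSO against 4, 24 and 0 under rapamycin. Rapamycin culture 2 was thus the highest of the 6 for RELB and cultures 1 and 3 were the lowest. Its difference in TE was -0.21 (SE 0.69, edgeR adjusted p = 0.929), which became -2.42 without rapamycin culture 2 and 0.61 without rapamycin culture 1.

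Of the inhibitors, NFKBIA (chromosome 14, 35870285 to 35873955, minus strand) had the most footprints of the 10 genes. Its footprints numbered 37, 50 and 232 under DMSO against 160, 71 and 28 under rapamycin, or 114, 62.8 and 158 RF CPM against 133, 85.9 and 93.1. The rapamycin cultures lay inside the range of the DMSO cultures. The TE of NFKBIA differed by -0.01 (SE 0.36, edgeR adjusted p = 0.996), with a 95% interval from 0.587-fold to 1.69-fold. These bounds are not a limit of detection. On simulated counts, a 4-fold change in TE was recovered in only 20% of 200 genes drawn at random from those tested, with 55 false calls. That share was not computed for genes with as many RF counts as NFKBIA. NFKBIE, another inhibitor of the same family (chromosome 6, 44225903 to 44233525, minus strand), had 5, 24 and 8 footprints under DMSO against 1, 15 and 2 under rapamycin. With so few counts its difference in TE of -0.91 (SE 0.81, edgeR adjusted p = 0.688) ran from -2.83 without rapamycin culture 2 to 0.06 without DMSO culture 2.

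IKBKB, the IKK subunit that phosphorylates the inhibitors (chromosome 8, 42128820 to 42189978, plus strand), had 1, 6 and 41 footprints under DMSO against 19, 3 and 3 under rapamycin. DMSO culture 3, the largest RF library, alone gave more raw counts than the other 5 libraries together. Scaled to library size, IKBKB was at 3.08 to 15.8 RF CPM in the other cultures and at 27.9 in DMSO culture 3. The TE of IKBKB differed by -0.82 (SE 0.63, edgeR adjusted p = 0.622) and by 0.71 without that culture. TNFAIP3 (chromosome 6, 138188351 to 138204451, plus strand) had 3, 0 and 17 footprints under DMSO against 0, 7 and 2 under rapamycin, next to at least 2849 total RNA counts in every culture. The culture at 0 in DMSO and the culture at 0 in rapamycin were from libraries where 0 counts allow up to 3.77 and 2.49 CPM. The difference of TNFAIP3 in TE was -0.95 (SE 1.0, edgeR adjusted p = 0.74), or 0.55 without DMSO culture 3.

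CXCL1, a chemokine that draws neutrophils (chromosome 4, 74735110 to 74737025, plus strand), had 22, 50 and 76 footprints under DMSO against 63, 57 and 11 under rapamycin. In RF CPM it was at 67.7, 62.8 and 51.6 in DMSO and at 52.2, 69.0 and 36.6 in rapamycin, so the treatments overlapped. Its highest RF CPM was 1.89 times its lowest, where that of NFKBIE was 36.4 times its lowest. The TE of CXCL1 differed by -0.06 (SE 0.33, edgeR adjusted p = 0.963).

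BIRC3 (chromosome 11, 102188215 to 102210134, plus strand) was the 1 gene of the 10 whose footprints were separated by treatment (background 9.45% for RF, or 4.21% with rapamycin below). Its footprints numbered 29, 59 and 141 under DMSO against 65, 56 and 17 under rapamycin. Scaled to library size, these were 89.2, 74.1 and 95.8 RF CPM in DMSO and 53.9, 67.8 and 56.6 RF CPM in rapamycin. Every rapamycin culture was lower than every DMSO culture, with means of 86.4 ± 11.1 and 59.4 ± 7.37 RF CPM (SD, n = 3 each), while total RNA overlapped at 748 ± 5.15 and 732 ± 27.8 CPM. The spread of BIRC3 between cultures was also the smallest of the 10, with its highest RF CPM 1.78 times its lowest.

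The log2 TE of BIRC3 was -3.03, -3.28 and -2.94 in DMSO and -3.74, -3.32 and -3.65 in rapamycin. These did not overlap (background 11.0%, or 6.19% with rapamycin below), and the closest cultures, at -3.28 and -3.32, were near each other. In edgeR the TE of BIRC3 was 0.703-fold that of DMSO, -0.51 on the log2 scale (SE 0.19, 95% interval -0.92 to -0.1), with p = 0.0184 and an adjusted p of 0.307, while the exact permutation test of log2 TE gave p = 0.1, the smallest that 3 cultures against 3 allow. An unadjusted p under 0.05 with TE lower in rapamycin was found for 6.42% of all genes tested. The RF test alone gave -0.54 (SE 0.36, edgeR adjusted p = 1.0). The TE fit, like DESeq2's, used 1 estimate of spread for both library types. Its SE of 0.19 was thus below the 0.36 of RF alone, and the TE interval of BIRC3 is too narrow. In limma voom with weights by library type, the log2 change was also -0.51, with an adjusted p of 0.903. Under the 12 alternatives the direction of BIRC3 did not change. Its log2 fold change was between -0.66 without rapamycin culture 2 and -0.39 without rapamycin culture 1, and its adjusted p was between 0.0189 and 1.0, the lowest being that of DESeq2's Wald test. The call for BIRC3 thus depended on the test, and 1 gene of 10 is near the background share of 12.6%.

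**Figure D4:**
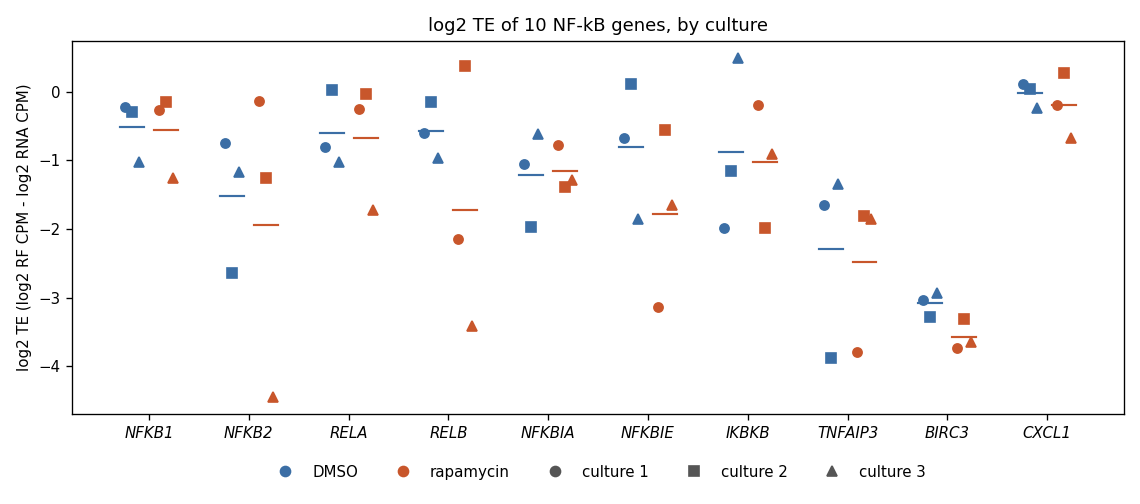
Values of log2 TE per culture (vertical axis, log2 RF CPM minus log2 total RNA CPM with a prior count of 2) for the 10 genes, with DMSO in blue, rapamycin in orange, a symbol for each culture number and a bar at each mean. BIRC3 was lowest by median in this measure, which was not scaled by length. Per length, TNFAIP3 was lower in DMSO (21.0% of the median gene, against 25.7%). BIRC3 was the gene whose 3 rapamycin values (-3.74, -3.32 and -3.65) all lay below its 3 DMSO values.

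**Figure D5:**
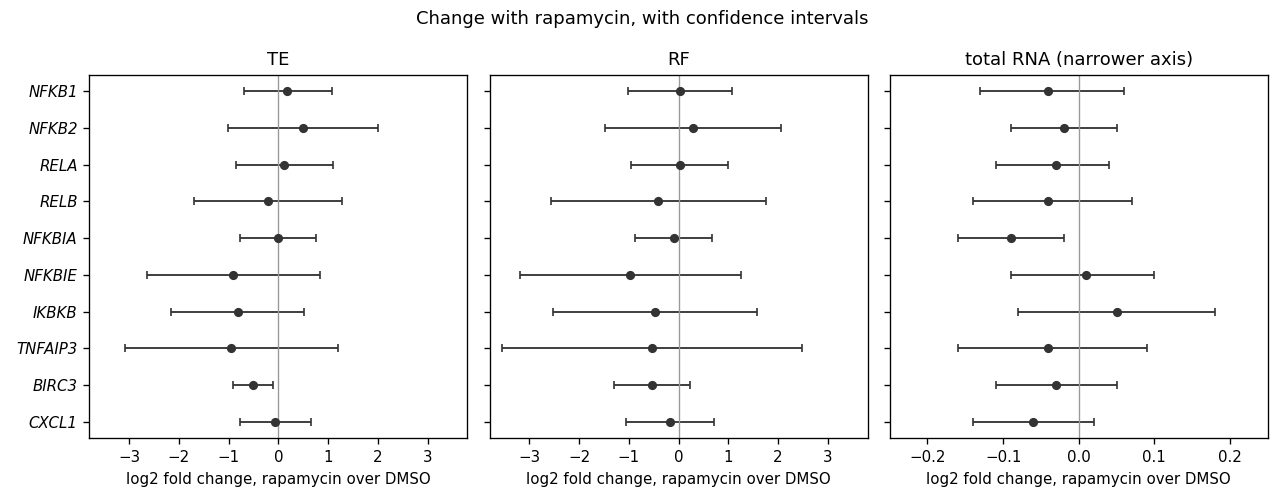
Fold change of each gene with rapamycin over DMSO (horizontal axis, log2) in TE, RF and total RNA, with 95% intervals from edgeR and a narrower axis for total RNA. The intervals that left out 0 were those of BIRC3 in TE (-0.92 to -0.1) and NFKBIA in total RNA (-0.16 to -0.02). Those in TE rest on 1 estimate of spread for both library types and are too narrow.

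Across the 10 genes, the fold changes in TE in edgeR had a median of -0.14 on the log2 scale, with 7 lower and 3 higher. Over all 13329 genes tested the median was -0.06, with 7161 lower and 6168 higher. The 95% intervals of the 10 genes together ran from 0.118-fold to 4.0-fold. The means of log2 TE per culture gave another tally, with 9 genes lower in rapamycin and 1 higher (NFKBIA, by 0.06). The share over all genes was not computed for that tally. The 3 genes with positive fold changes in edgeR were NFKB1, NFKB2 and RELA, whose mean log2 TE differed by -0.04, -0.43 and -0.07. The sizes also differed between the measures for RELB (-1.16 by the means, -0.21 in edgeR), TNFAIP3 (-0.2 and -0.95) and IKBKB (-0.14 and -0.82). In edgeR, the 4 with the most negative fold changes were TNFAIP3, NFKBIE, IKBKB and BIRC3, of which the first 3 had at most 73 RF counts each. All 3 positive signs in edgeR turned when 1 culture was left out, and so did 6 of the 7 negative ones, the exception being BIRC3.

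The rest of the pathway was described with a list of 96 genes, of which 95 were in the count table and 85 were tested, 75 of them beside the 10. Of these 75, the fold change in TE was below 0 in 37 and above 0 in 38, with a median of 0.03 on the log2 scale, and none passed an adjusted p of 0.05 in edgeR. At an unadjusted p under 0.05, 2 were lower (background 6.42%) and 6 were higher (background 6.17%), and DESeq2 called 7 at an adjusted p under 0.05 (background 9.32%). The 1 remaining subunit, REL, had 0, 11 and 34 footprints under DMSO against 15, 15 and 1 under rapamycin. The kinase TBK1, which acts beside IKK, differed in TE by 0.36 (SE 0.56) and IKBKG, the scaffold of IKK, by 0.1 (SE 0.27), though IKBKG shares sequence with a pseudogene and its counts are uncertain. The inhibitor NFKBIB differed by 0.41 (SE 0.43) and NFKBIZ, an atypical nuclear member of the inhibitor family, by -0.46. The receptors TNFRSF1A (-0.42, edgeR adjusted p = 0.593) and TNFRSF12A (-0.27, edgeR adjusted p = 0.78) did not pass the test in TE. Nor did the adaptors BCL10 (-0.7) and TAB1 (-0.35) or TAX1BP1 (0.03), a partner of TNFAIP3 in ubiquitin editing.

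CCL2, a monocyte chemokine, had 247, 711 and 1326 footprints under DMSO against 961, 693 and 255 under rapamycin, and its TE differed by -0.04 with a 95% interval from -0.36 to 0.28. PLAU, the urokinase gene, differed in TE by 0.19 (95% interval -0.33 to 0.7). The smallest p values in TE belonged to thinly counted genes of ubiquitin editing and signalling. CYLD, a deubiquitinase that restrains the pathway, had 1, 0 and 0 footprints under DMSO against 21, 4 and 1 under rapamycin (edgeR adjusted p = 0.231). OTUD7B, a deubiquitinase, had 3, 4 and 7 footprints under DMSO against 50, 20 and 2 under rapamycin (edgeR adjusted p = 0.231). IRAK4, the kinase beside Toll-like receptors, had 8, 23 and 46 in DMSO and 17, 9 and 1 in rapamycin, a difference in TE of -1.42 (edgeR adjusted p = 0.231). For CSF2, all 3 DMSO libraries had 0 RF counts and the rapamycin libraries 18, 1 and 0, so most of its counts came from 1 library. UBE2N, which builds the ubiquitin chains that activate IKK, differed in TE by -0.71 (95% interval -1.23 to -0.18, edgeR adjusted p = 0.277) with 46, 83 and 179 footprints under DMSO and 81, 62 and 23 under rapamycin. The others with an unadjusted p under 0.05 were NUAK2 (2.43), TNFRSF1B (0.94) and OTULIN (2.78), each with the log2 change in TE given and none with an edgeR adjusted p under 0.231. With 1 culture left out, NUAK2 ran from 1.68 (without DMSO culture 3) to 3.8 (without DMSO culture 1), OTULIN from 2.11 (without DMSO culture 2) to 4.21 (without DMSO culture 1), and TNFRSF1B from 0.64 (without rapamycin culture 3) to 1.26 (without rapamycin culture 2). The calls depended on the test here too. DESeq2's adjusted p was 5.53e-06 for OTUD7B, 0.000882 for UBE2N, 0.00137 for IRAK4 and 0.0031 for CYLD. It was 0.0148 for CSF2, 0.0182 for TNFRSF1B, 0.134 for NUAK2 and 0.472 for OTULIN. DESeq2 used 1 estimate of spread for both library types. In limma voom with weights by library type, the adjusted p of these genes lay between 0.724 (OTUD7B among them) and 0.849 (OTULIN).

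Isoform values were given as FPKM per transcript. The leading isoform had coding sequence in 9 of the 10 genes, and its share of the gene's FPKM did not overlap between treatments in 3 of the 10 (background 10.3% of 9747 genes). For NFKBIA, ENST00000216797 made up 60.8% ± 0.0207 in DMSO and 62.9% ± 0.431 in rapamycin (SD, n = 3 each). For RELB, ENST00000221452 was at 64.1% ± 10.6 and 48.0% ± 3.67, although matched transcripts covered 79.6% of its FPKM. For CXCL1, ENST00000395761 was at 96.0% ± 0.3 and 95.0% ± 0.557. The gene whose leading isoform had no coding sequence was IKBKB, at 15.2% ± 2.0 in DMSO and 13.6% ± 4.94 in rapamycin over 27 isoforms. In NFKBIE the leading isoform, at 51.9% ± 1.46 in DMSO, had 165 bases of coding sequence, and the full coding sequence of 1500 bases was in the next, at 41.7% ± 5.44.

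The pathway gene whose total RNA followed BIRC3 most closely over the 6 cultures was TBK1 (Pearson r = 0.97 of log2 CPM, 84 candidates), and TBK1 was also the closest to CXCL1 (r = 0.9). The closest to NFKBIA was IRAK1 (r = 0.87), to RELA TRAF1 (r = 0.94), to IKBKB REL (r = 0.96), and NFKB1 and TNFAIP3 were closest to each other (r = 0.88). These values describe 6 libraries whose depth and treatment all genes share, and each is the highest of 84.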

How the data were processed

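PANC-1 cultures treated with DMSO or rapamycin (3 each) gave RF and total RNA libraries. The authors trimmed RF reads, removed ribosomal RNA, aligned both kinds of read to GRCh37 with HISAT2, kept unique alignments and used featureCounts to make the deposited raw counts per protein-coding gene. They deposited FPKM per gene and isoform from Cufflinks 2.2.1 and Cuffnorm for total RNA, whose normalized counts were not used here, and columns of their own TE comparison (ratios and p-values), which were not used either. A count column headed as FPKM equals the mean DMSO total RNA count in 20212 of 20212 rows (within 0.1%). Tool versions beyond these are not given in the sources used here.

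In R 4.3.3 with edgeR 4.0.16, libraries were TMM-scaled within each type, and the 13329 genes with at least 10 RF and 10 total RNA counts were tested with quasi-likelihood, TE as the interaction of library type and treatment, with Benjamini-Hochberg adjustment over all genes tested. Per-culture log2 TE used a prior count of 2 and a two-sided exact permutation test. Alternatives used DESeq2 1.42.0 and limma 3.58.1. On simulated counts, 20% of 200 genes changed 4-fold in TE were recovered among 12650 genes (with 55 false calls). The false calls in TE outnumbered the 40 recovered genes, so the TE test did not hold its limit of 0.05 there. In RF, 27.5% of 200 changed 4-fold were recovered among 12686 (11 false calls). In total RNA, 66.5% of 200 changed 1.25-fold were recovered among 12642 (13 false calls). Beside 55 genes recovered in RF and 133 in total RNA, these false calls were also over the limit of 0.05. Between treatments, cultures of 1 number had r of deviations between -0.201 and -0.0461. The same check gave r between -0.064 and 0.0245 for RF and total RNA of 1 culture, which the labels do pair. It therefore cannot tell whether the numbers pair the treatments.

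The members and lists were chosen with earlier results of these data known. Beside the 10 genes, the text names in each role of the pathway list the 2 genes with the most RF counts, and up to 8 with the smallest unadjusted p under 0.05 in TE. Marker lists gave 1 of 5 macrophage genes (CD68), 1 of 6 fibroblast genes (COL1A1) and 0 of 6 acinar and islet genes over 1 FPKM. Promoter sequences are RefSeq's (GRCh38.p14), gene positions those of GRCh37.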

Additional observations from a re-analysis of the deposited data

How the results depend on the processing

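The 10 genes had 29 to 578 RF counts each, and the RF libraries of 1 treatment differed by more than counting error (chi-square per degree of freedom from 3.63 to 22.8). No call over the 10 genes changed except that of BIRC3 in TE under DESeq2. Over all genes, edgeR called 0 in each test, and other settings called more. In TE, DESeq2's Wald test called 582 lower and 656 higher, and leaving out 1 culture gave 0 to 331 lower (331 without DMSO 3) and 0 to 65 higher (65 without DMSO 3, 5 without rapamycin 1). In RF, DESeq2 called 1 lower and 4 higher, no filter on low counts 10 and 10, the replicate block 2 and 4, and leaving out 1 culture 0 to 1 lower and 0 to 5 higher. In total RNA, DESeq2 called 4 lower and 25 higher, limma-trend on FPKM 2 lower and 2 higher with a pseudocount of 1, 3 and 2 with 0.1, and 3 and 2 with no minimum, and leaving out 1 culture gave 0 to 4 lower and 0 to 683 higher (683 without DMSO 3). The cause was not tested.

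Signs turned in 66 cases, none of them called. With 1 culture left out, the log2 change in TE ran from -0.1 to 0.54 for NFKB1, -0.42 to 0.86 for NFKB2, -0.17 to 0.62 for RELA, -2.42 to 0.61 for RELB, -0.34 to 0.42 for NFKBIA, -2.83 to 0.06 for NFKBIE, -1.88 to 0.71 for IKBKB, -2.43 to 0.55 for TNFAIP3, -0.33 to 0.09 for CXCL1, -0.42 to 0.71 for TBK1, -0.69 to 0.66 for TAB1, -0.45 to 0.02 for TNFRSF12A, -0.69 to 0.4 for REL and -0.27 to 0.23 for TAX1BP1. The change in RF ran from -0.25 to 0.3 for NFKB1, -0.69 to 0.77 for NFKB2, -0.29 to 0.47 for RELA, -2.72 to 0.07 for RELB, -0.4 to 0.24 for NFKBIA, -1.1 to 0.77 for IKBKB, -1.46 to 0.27 for TNFAIP3 and -0.42 to 0.01 for CXCL1, and the change in total RNA of NFKBIE from -0.02 to 0.03. With a replicate block, TE turned to 0.05 for NFKBIA and 0.25 for TAB1, and RF to -0.07 for NFKB1, -0.02 for NFKB2 and -0.09 for RELA. Whether the numbers pair the treatments is not known, and in TE the block ties RF to total RNA of a culture. With no filter, TE of NFKBIA became 0.02 and total RNA of NFKBIE -0.01. With limma voom TE became 0.02 for NFKBIA and 0.02 for TAB1, with DESeq2 0.03 for CXCL1 and 0.09 for TAB1, and with TMM over all libraries -0.05 for TAX1BP1. DESeq2 gave RF of RELA as -0.01. In FPKM, total RNA of NFKB1 was 0.11 and of NFKBIE -0.02 under each pseudocount and filter. Reads carry no molecular identifiers, so limits cover counting error only.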
